A study of Mus musculus with 12 samples.

Results

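The calcium cycling and CaMKII genes are 34 genes, chosen by symbol, of the 24390 symbols in a normalized count table of mouse cardiac ventricles. They encode the calcium pump of the sarcoplasmic reticulum (SR) and its regulators, calcium buffers, proteins of the junction between the SR and the surface membrane, subunits of release channels, calmodulin and its kinase CaMKII, and proteins of calcium exchange at the surface and in mitochondria. Ryanodine receptor and voltage-gated calcium channel genes were not among them. All 34 were in the table, and 33 passed the filter, a mean of at least 10 normalized counts across the 12 libraries. Fkbp1b did not.

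The study asked how the transcriptome differs when the endogenous Mef2d gene is activated in the heart after birth. Total RNA came from ventricles of C57BL/6 mice aged 8 weeks, with 3 libraries in each of 4 groups. WT_saline was wild-type with saline, and WT_AAV was wild-type with an AAV9 vector that the labels call TRISPR and name with Mef2d. TG_saline carried the transgene Myh6-dCas9VPR, a nuclease-dead Cas9 fused to activating domains and driven by the heart muscle promoter of Myh6, and received saline. TG_AAV carried that transgene and received the vector. WT_saline, WT_AAV and TG_saline together are called the 9 control libraries. The vector dose, the time of injection, the sex and whether animals were pooled are not given in the labels. The labels do not say that samples of a group came from separate animals, so the p-values reflect only how these samples spread, which could be technical variation.

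In each beat, calcium leaves the SR through release channels, binds the contractile filaments and is pumped back by the SERCA pump, while a smaller part leaves the cell by the sodium-calcium exchanger. Phospholamban holds the pump back until it is phosphorylated by protein kinase A or by CaMKII, a kinase that calcium-bound calmodulin activates. Inside the SR, calsequestrin and other low-affinity proteins hold the calcium that the next beat releases.

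The deposited values are gene read counts divided by a factor for each library, here called normalized counts. The libraries held 10233281 to 14911986 reads assigned to genes, and within each group the libraries differed beyond counting noise (chi-square per degree of freedom 4.96 to 25.5). Mef2d, the targeted gene, stood at 1989, 2231 and 1897 in TG_AAV and between 833 and 1178 in the controls, a log2 change of 1.07 (SE 0.09, limma adjusted p = 5.01e-06). Among 7 markers of heart muscle cells, 2 were lower in TG_AAV (Tnni3 and Tnnt2), and their summed level was 1625102 to 1745786 in TG_AAV against 1736509 to 2168016 in the controls. Among 7 fibroblast markers, 3 were higher (Mfap5, Dcn and Pdgfra), with a summed level of 13091 to 13846 against 8542 to 12437. Of 7 endothelial markers 2 were lower (Cdh5 and Esam), and their summed level was 9463 to 11444 against 10988 to 13887. By the same limma test (adjusted p under 0.05), 12.0% of all tested genes were higher in TG_AAV and 9.69% lower. The part of the marker shifts in the results below was not tested. In whole tissue, fewer cells of a type and less RNA per cell cannot be told apart. WT_saline 3 and WT_AAV 3 stood apart in these genes: they held the lowest values of all 12 libraries for Casq2, Srl, S100a1, Asph, Calm3, Camk2b, Camk2d and Camk2g. WT_AAV 1, WT_AAV 3 and TG_AAV 1 held the atrial transcript Myl7 at 2040, 1690 and 1500 normalized counts, and the other 9 libraries at 728 or less.

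Because MEF2 proteins bind an AT-rich DNA consensus, the sequence around the start of each gene was searched, in a window of 250 bases before to 50 bases after the start (RefSeq, GRCm38.p6, 300 bases). The search covered 23 of the 34 genes. Camk2a was not among the 23, so whether it holds any of the motifs was not tested. The MEF2 consensus was present in 1 of 23, Casq2, against 3.19% of 32851 promoters. The E-box CANNTG, the motif of the basic helix-loop-helix factors of muscle, was present in 18 of 23, against 72.3%. The letters TATAAA were present in 1 of 23, Pln, against 13.6%. Jph2 and Atp2b1 had more than 1 window and counted when any of them held a match. The 32851 promoters were counted window by window, so the units differ. Both strands were searched for each motif, and none of the capitals below belongs to more than 1 motif. Shown are Casq2, which holds the MEF2 match, and 4 genes with large changes: Casq1 and Camk2b, which rose most, and Pln and Hrc, which fell. Capitals mark matches, and positions count from the start of the gene. The Casq2 window is chr3:102086165-102086464 on the plus strand, with the MEF2 match TTATTTTTAG at -69 and E-boxes at -200 and -52. The Casq1 window is chr1:172219846-172220145 on the minus strand, with E-boxes at -195 and -67. The Pln window is chr10:53337436-53337735 on the plus strand, with TATAAA at -219 and E-boxes at -59 and 9. The Hrc window is chr7:45335019-45335318 on the plus strand, with an E-box at -22. The Camk2b window is chr11:6065699-6065998 on the minus strand and holds none of the 3 motifs.
Casq2: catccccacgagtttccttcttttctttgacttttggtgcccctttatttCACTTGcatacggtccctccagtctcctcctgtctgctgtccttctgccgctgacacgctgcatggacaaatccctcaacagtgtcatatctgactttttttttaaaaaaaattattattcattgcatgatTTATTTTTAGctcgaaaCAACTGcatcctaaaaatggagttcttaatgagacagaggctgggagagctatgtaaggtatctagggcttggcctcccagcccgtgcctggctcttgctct
Casq1: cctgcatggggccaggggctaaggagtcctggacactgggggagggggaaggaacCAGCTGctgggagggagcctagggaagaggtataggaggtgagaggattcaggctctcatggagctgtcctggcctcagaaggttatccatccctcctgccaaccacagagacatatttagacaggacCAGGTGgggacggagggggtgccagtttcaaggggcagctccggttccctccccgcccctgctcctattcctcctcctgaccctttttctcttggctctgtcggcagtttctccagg
Pln: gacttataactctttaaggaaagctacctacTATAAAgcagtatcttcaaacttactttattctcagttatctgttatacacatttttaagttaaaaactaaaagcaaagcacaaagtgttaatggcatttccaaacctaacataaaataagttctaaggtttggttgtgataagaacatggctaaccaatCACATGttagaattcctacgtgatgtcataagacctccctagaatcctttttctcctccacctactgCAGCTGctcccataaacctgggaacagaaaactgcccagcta
Hrc: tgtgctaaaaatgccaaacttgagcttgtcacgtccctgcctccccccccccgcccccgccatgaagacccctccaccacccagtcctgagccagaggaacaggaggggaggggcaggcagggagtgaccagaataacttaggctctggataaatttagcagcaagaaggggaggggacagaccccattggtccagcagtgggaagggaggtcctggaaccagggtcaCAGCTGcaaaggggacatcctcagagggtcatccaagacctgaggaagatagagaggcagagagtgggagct
Camk2b: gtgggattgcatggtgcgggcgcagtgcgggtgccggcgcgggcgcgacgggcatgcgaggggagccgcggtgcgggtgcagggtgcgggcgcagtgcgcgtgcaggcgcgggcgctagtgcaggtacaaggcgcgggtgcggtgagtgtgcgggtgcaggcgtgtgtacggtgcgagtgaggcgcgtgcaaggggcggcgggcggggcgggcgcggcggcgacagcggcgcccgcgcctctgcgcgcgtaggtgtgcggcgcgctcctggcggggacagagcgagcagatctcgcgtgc
A match is a description of these letters and not a measured binding site.

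Hearts with both the transgene and the vector were set against the average of the 3 control groups. They had less transcript for the cardiac pump, its inhibitor, an SR buffer and the exchanger. They had more transcript for Casq1 and Camk2b, the calsequestrin of skeletal muscle and a CaMKII gene with low levels in these controls. Against TG_saline alone the pump gene Atp2a2 was not called (log2 -0.425, limma adjusted p = 0.113). Of the 33 genes tested in TG_AAV against the average of the 3 control groups, 8 rose, 7 fell and 18 did not pass (limma, two-sided, Benjamini-Hochberg over 13030 genes, adjusted p under 0.05). Over all tested genes 12.0% rose and 9.69% fell. The genes that rose were Casq1, Camk2b, Mcu, Calm3, Tmem38b, S100a1, Jph1 and Camk2g. Those that fell were Pln, Camk2a, Hrc, Atp2a2, Slc8a1, Jph2 and Tmem38a. The median log2 change of the 33 was -0.006, against -0.003 over all genes. All 3 TG_AAV values lay above the 9 control values in 8 genes and below them in 8, against 10.2% and 7.26% of all genes. In 10 of the 15 called genes the call held under all alternatives tried. Atp2a2, Tmem38a, Tmem38b, Jph1 and Camk2g each lost it under at least 1. Without WT_saline 3, WT_AAV 2 and WT_AAV 3, a set taken from earlier work on these data, 17 genes were called. That fit called 3271 of all genes, where the main fit called 1568 higher and 1262 lower. A fit without the 3 libraries with Myl7 above 1000 normalized counts left 1 WT_AAV library. It put the median log2 change of the 33 at -0.012, with -0.001 over all genes.

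**Figure D1:**
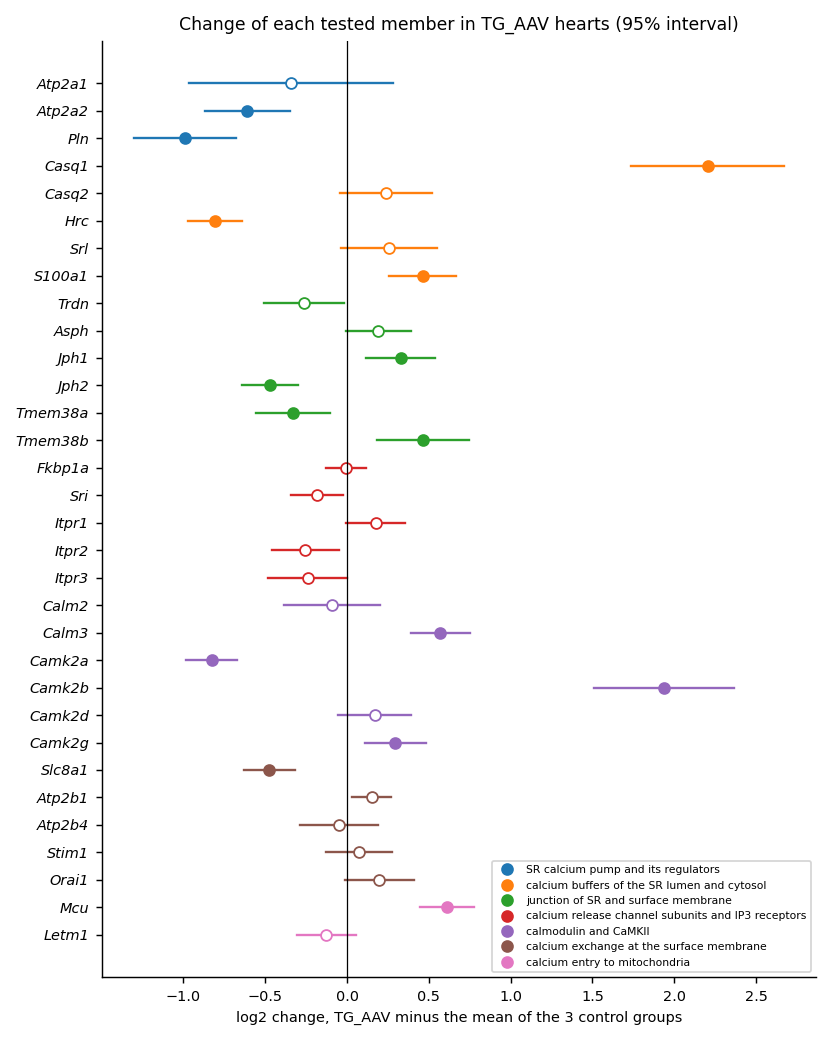
The horizontal axis is the log2 difference of normalized counts with its 95% interval, for each tested gene in TG_AAV against the controls. Genes are ordered by role, Sln is left out because its interval runs from -4.42 to 3.76, and Casq1 (2.20) and Camk2b (1.94) lie farthest to the right and Pln (-0.99) farthest to the left.

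Of the pump and its regulators, 2 of 4 fell and 0 rose. Atp2a2 encodes SERCA2, the pump of heart muscle. Its normalized count was 193154, 204007 and 195527 in the WT_saline libraries, 205497, 194505 and 172313 in WT_AAV, 172400, 161877 and 147321 in TG_saline, and 124288, 115933 and 117863 in TG_AAV. The 3 TG_AAV libraries were the lowest of the 12, and TG_saline lay between them and WT_saline without overlap. The mean in TG_AAV, 119361 ± 4375 (SD, n = 3), stood at 0.652 times that of the controls, 182956 ± 20266 (SD, n = 9), a log2 change of -0.61 (SE 0.12, limma adjusted p = 0.00321). The log2 change was -0.61 with TMM scaling and in DESeq2 and -0.62 in edgeR. Atp2a2 ranked 4 among all genes by level in 11 libraries and 5 in WT_saline 3, and quantile normalization, which assigns the same value to a given rank in every library, put the change at 0.052 (adjusted p = 0.693). With no filter on low genes the change was as large but did not pass (adjusted p = 0.115). As a share of all reads Atp2a2 took 1.06% to 1.14% in TG_AAV and 1.38% to 1.74% in the controls. It shares 3.31% of its 50-base words with Gm30970, so its count is less certain.

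Pln encodes phospholamban. It stood at 83975, 88475 and 57402 normalized counts in WT_saline, 76252, 60595 and 52151 in WT_AAV, 68190, 68149 and 58224 in TG_saline, and 35002, 34489 and 32150 in TG_AAV. Every TG_AAV library lay well below the lowest control, and the wild-type libraries spread widely among themselves. The mean in TG_AAV, 33880 ± 1520 (SD, n = 3), stood at 0.497 times that of the controls, 68157 ± 12531 (SD, n = 9), a log2 change of -0.99 (SE 0.14, limma adjusted p = 0.000421). The ratio of Pln to Atp2a2 normalized counts, not corrected for length, was 0.282, 0.297 and 0.273 in TG_AAV. WT_saline had 0.435, 0.434 and 0.294, WT_AAV had 0.371, 0.312 and 0.303, and TG_saline had 0.396, 0.421 and 0.395. TG_AAV was low for this ratio but overlapped WT_saline 3, and no test was made of it.

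Atp2a1 encodes SERCA1, the pump of fast skeletal muscle, and stayed between 8.02 and 18.8 normalized counts in the 12 libraries. Its log2 change of -0.34 did not pass (limma adjusted p = 0.433). Sln encodes sarcolipin, a small inhibitor of the pump that mouse hearts express mainly in the atria. It stood at 528 in WT_AAV 1, 357 in WT_AAV 3, 319 in TG_AAV 1, 166 in TG_saline 1 and 52.4 in TG_saline 3, and at 2.39 or less in the other 7 libraries. The 5 libraries with Sln were those with the highest Myl7, at 2040, 1690, 1500, 728 and 258 normalized counts. In TG_AAV against the controls the log2 value was -0.33 with an SE of 1.90 (limma adjusted p = 0.925), too imprecise to give a direction. DESeq2 called Sln in TG_AAV against WT_saline, whose 3 libraries held 2.29 or less, and limma did not (adjusted p = 0.555). The part of the atrial transcripts in these values was not tested.

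**Figure D2:**
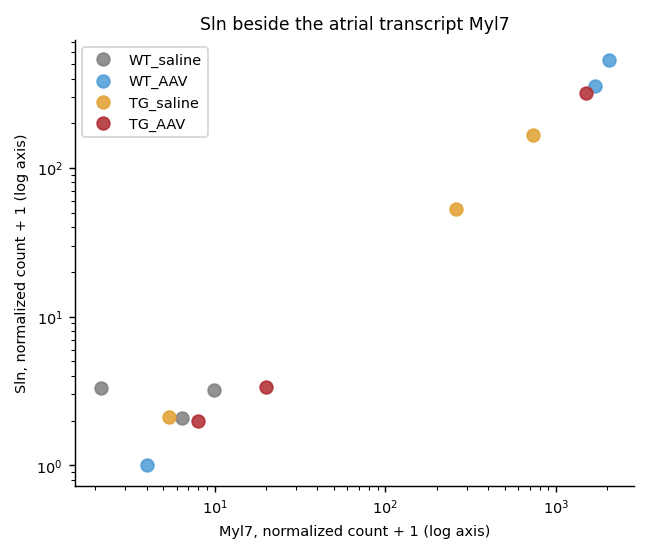
Each point is a library, with the normalized count of the atrial transcript Myl7 + 1 on the horizontal axis and that of Sln + 1 on the vertical axis, both log axes, coloured by group. The 5 libraries at the upper right have Sln between 52.4 and 528 normalized counts and come from WT_AAV, TG_saline and TG_AAV, and the other 7 libraries lie at the lower left.

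Of the 5 buffers, 2 rose, 1 fell and 2 did not pass. Casq1 encodes the calsequestrin of skeletal muscle. Its normalized count was 101, 81.3 and 103 in the WT_saline libraries, 289, 258 and 129 in WT_AAV, 164, 95 and 100 in TG_saline, and 576, 627 and 644 in TG_AAV. All TG_AAV libraries were above all controls, among which WT_AAV 1 and WT_AAV 2 were highest. The mean in TG_AAV, 616 ± 35.1 (SD, n = 3), stood at 4.20 times that of the controls, 147 ± 76.0 (SD, n = 9), a log2 change of 2.20 (SE 0.22, limma adjusted p = 2.26e-05). The summed level of 9 skeletal muscle markers was 767 to 1606 in TG_AAV and 157 to 1547 in the controls. Myh4 was at most 1.46 normalized counts, Tnnt3 11.9, Mylpf 9.16, Actn3 7.97, Tnni2 17.7, Pvalb 18.3 and Myh1 56.6 in any library. Myh2 stood between 944 and 1270 in WT_saline 1, WT_saline 3, WT_AAV 1, TG_saline 2, TG_AAV 1 and TG_AAV 2 and at 3.04 or less elsewhere. TG_AAV 3, without Myh2, had the highest Casq1. Of the 9 skeletal markers 4 were tested and 1 rose, Mybpc2, from 235 to 599 (log2 1.39, limma adjusted p = 0.000393). The part of these markers in the Casq1 result was not tested. An antisense transcript, Gm17224, overlaps Casq1 exons in GENCODE M21, and without strand its reads cannot be told apart from those of Casq1.

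Casq2, the calsequestrin of heart muscle, stood at 12216, 11455 and 10488 normalized counts in TG_AAV. The 9 controls had a lowest value of 7187 in WT_AAV 3 and a highest of 11584 in WT_saline 2, so the groups overlapped. Its log2 change of 0.24 did not pass (limma adjusted p = 0.214). With quantile normalization limma called Casq2 (adjusted p = 0.00627). Casq1 made up 4.50% to 5.78% of the reads of both calsequestrins in TG_AAV and 0.697% to 2.88% in the controls. The 95% Wilson interval of a single library was at most 0.395 percentage points to either side, which covers counting error only.

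Hrc encodes the histidine-rich calcium-binding protein of the SR lumen. It stood at 11237, 11259 and 11074 normalized counts in WT_saline, 12148, 12790 and 10797 in WT_AAV, 9595, 8996 and 8043 in TG_saline, and 6250, 6324 and 5531 in TG_AAV. TG_saline lay between TG_AAV and the wild-type libraries, with no overlap on either side. Hrc fell by 0.81 in log2 (SE 0.08, limma adjusted p = 1.88e-05), from a control mean of 10660 ± 1516 (SD, n = 9) to 6035 ± 438 (SD, n = 3).

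S100a1 encodes a cytosolic calcium sensor that binds the SR pump and release channel. It was 2957, 3070 and 2484 normalized counts in the WT_saline libraries, 2987, 2870 and 2280 in WT_AAV, 3051, 3676 and 3050 in TG_saline, and 4145, 3893 and 4008 in TG_AAV. The TG_AAV libraries were the highest, with TG_saline 2 next, and the log2 change was 0.46 (SE 0.09, limma adjusted p = 0.00385). Srl encodes sarcalumenin, a buffer and partner of the pump. It had 18531 to 20574 normalized counts in TG_AAV and 12577 to 19988 in the controls, which overlapped (log2 0.26, limma adjusted p = 0.196). With quantile normalization limma called Srl (adjusted p = 0.00585).

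**Figure D3:**
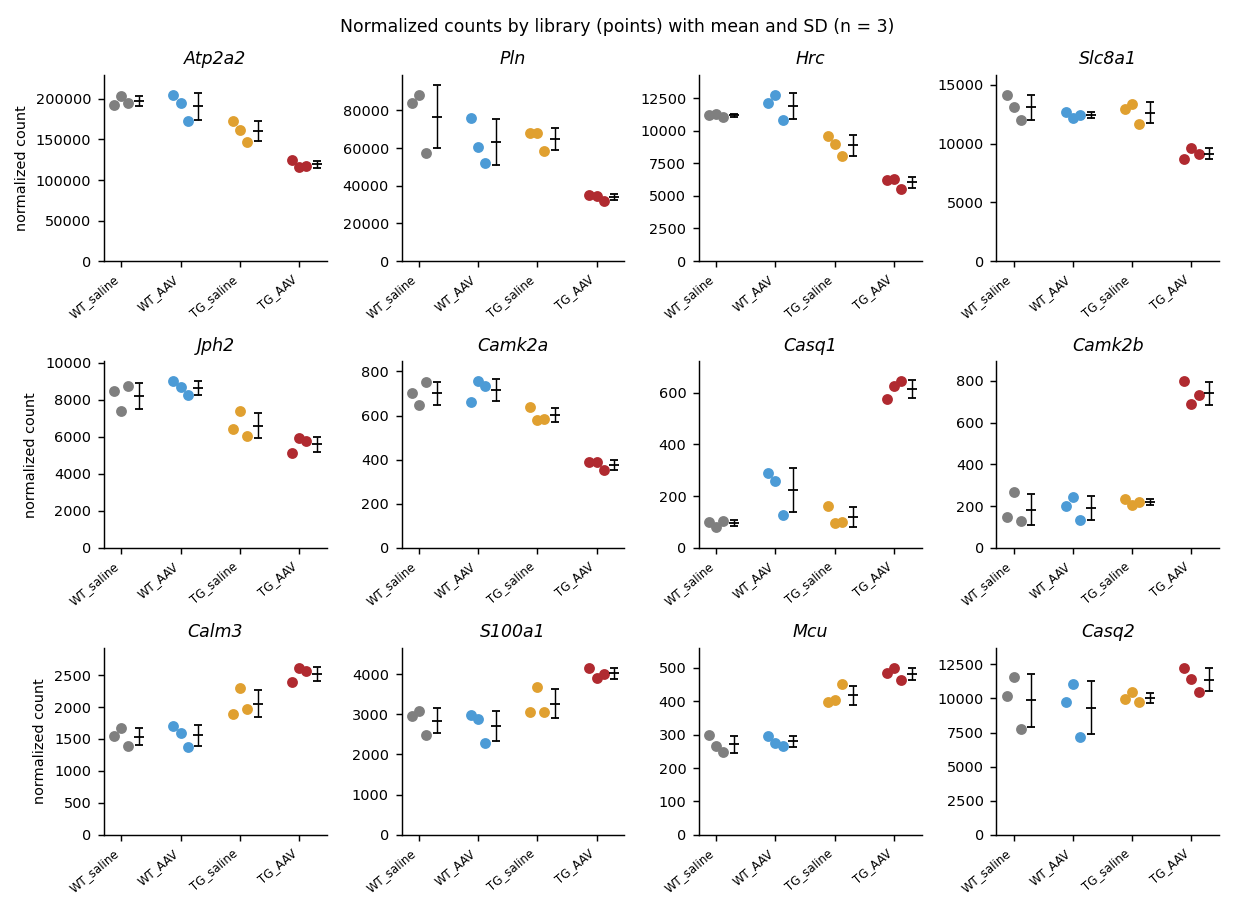
Each panel plots the normalized count of a gene by library (points) for the 4 groups, with the mean and SD of each group (n = 3) as a bar beside them, and each vertical axis starts at 0. TG_AAV lies below all controls for Atp2a2, Pln, Hrc, Slc8a1, Jph2 and Camk2a and above them for Casq1, Camk2b, Calm3, S100a1 and Mcu, while Casq2 overlaps.

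Of the 6 genes of the junction between SR and surface membrane, 2 rose, 2 fell and 2 did not pass. Junctophilins tether the SR to the surface membrane, and Jph2 is the main form in heart muscle. Its normalized count was 8482, 7416 and 8752 in the WT_saline libraries, 9002, 8678 and 8264 in WT_AAV, 6424, 7378 and 6046 in TG_saline, and 5130, 5916 and 5756 in TG_AAV. All TG_AAV values were below all controls, with TG_saline 3 the nearest. The log2 change of Jph2 was -0.47 (SE 0.08, limma adjusted p = 0.00112). Jph1, the main form in skeletal muscle, was 648, 597 and 598 in TG_AAV and 384 to 552 in the controls, which did not overlap (log2 0.33, SE 0.10, limma adjusted p = 0.0301). Its call was lost without TG_saline 3 or any single TG_AAV library, without the 3 Myl7-rich libraries and with a term for libraries with Myh2 above 100 normalized counts (adjusted p 0.0504 to 0.139). The share of Jph1 in the reads of both junctophilins was 9.16% to 11.2% in TG_AAV and 4.44% to 7.30% in the controls.

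Tmem38a and Tmem38b encode TRIC-A and TRIC-B, cation channels of the SR that balance the charge of calcium release. Tmem38a, the main form in muscle, was 3618, 3617 and 3605 normalized counts in TG_AAV and 3731 to 5363 in the controls, all of which were higher (log2 -0.33, SE 0.10, limma adjusted p = 0.0380). Its call was lost without any single TG_AAV library, without WT_saline 1, WT_saline 2, WT_AAV 2, TG_saline 1 or TG_saline 2, without the 3 Myl7-rich libraries and with no filter on low genes (adjusted p 0.0525 to 0.120). Tmem38b was 516, 426 and 420 in TG_AAV and 261 to 423 in the controls, so WT_AAV 2 overlapped TG_AAV (log2 0.46, SE 0.13, limma adjusted p = 0.0216). That call was lost without TG_AAV 1, without TG_AAV 2 and without the 3 Myl7-rich libraries (adjusted p 0.0535 to 0.184). The Tmem38b share of the reads of both genes was 10.4% to 12.5% in TG_AAV against 4.86% to 8.06%.

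Trdn encodes triadin and Asph encodes junctin beside a hydroxylase. Triadin and junctin anchor calsequestrin at the release channel. Trdn was 1913 to 2327 normalized counts in TG_AAV and 1970 to 3037 in the controls (log2 -0.26, limma adjusted p = 0.113). Asph was 3549 to 3865 against 2596 to 3581 (log2 0.19, limma adjusted p = 0.152). The groups overlapped for both genes. Limma called Trdn with a replicate block, without WT_AAV 3, and without WT_saline 3, WT_AAV 2 and WT_AAV 3. It called Asph with quantile normalization (adjusted p = 0.0143). The products of Asph were not separated, because the table holds a single value per symbol.

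None of the 5 tested genes for channel subunits and IP3 receptors passed against the controls in the limma fit of all 12 libraries, in edgeR or in DESeq2, and 2 of them, Sri and Itpr2, had an unadjusted limma p under 0.05. With quantile normalization limma called Sri (adjusted p = 0.0495) and Itpr2 (adjusted p = 0.0431). It also called Itpr2 without TG_saline 1 (0.0386) and with the Myh2 term (0.0494), and Itpr1 without WT_AAV 3 (0.0423) and without WT_saline 3, WT_AAV 2 and WT_AAV 3 (0.0109). Fkbp1a encodes FKBP12, a subunit of ryanodine receptors. It had 632 to 645 normalized counts in TG_AAV and 608 to 672 in the controls, close to the same level in every library. Its log2 difference of -0.01 had a 95% interval of -0.13 to 0.12. Fkbp1b, the subunit FKBP12.6, had 35 reads in TG_AAV and 72 in the controls, with normalized counts of 5.83 to 12.7 and 1.01 to 11.8 (exact two-sided permutation p = 0.641). Sri encodes sorcin, a calcium-binding regulator of the release channel. It stood at 322, 325 and 341 in TG_AAV, just below the controls at 342 to 416 (log2 -0.19, limma adjusted p = 0.0894).

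The IP3 receptors are release channels opened by inositol trisphosphate. Itpr1 had 2276 to 2576 normalized counts in TG_AAV against 1889 to 2542 in the controls (log2 0.18, limma adjusted p = 0.152). Itpr2 had 976 to 1136 against 972 to 1492 (log2 -0.25, limma adjusted p = 0.0765). Itpr3 had 256 to 321 against 292 to 403 (log2 -0.24, limma adjusted p = 0.145). The groups overlapped in each gene. Within the family, Itpr1 took 62.0% to 67.6% of reads in TG_AAV and 53.6% to 60.5% in the controls, while the summed normalized count was 3697 against 3687 on average.

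Of the 6 genes for calmodulin and CaMKII, 3 rose, 1 fell and 2 did not pass. CaMKII is built from the products of 4 genes, of which Camk2d and Camk2g are the main ones in the heart and Camk2a and Camk2b are known best from neurons. Among neuronal markers, Uchl1 rose (log2 1.52, limma adjusted p = 5.17e-06), and Dbh fell (-2.13, adjusted p = 0.000117). Snap25 and Th were at most 1.09 normalized counts in any library, and the part of these markers in the results for Camk2a and Camk2b was not tested. Camk2a was 704, 648 and 752 normalized counts in the WT_saline libraries, 660, 755 and 734 in WT_AAV, 637, 582 and 586 in TG_saline, and 390, 390 and 352 in TG_AAV. TG_AAV lay far below every control, and TG_saline was lower than WT_saline without overlap. The mean went from 673 ± 66.7 (SD, n = 9) to 377 ± 21.6 (SD, n = 3), a log2 change of -0.83 (SE 0.07, limma adjusted p = 8.89e-06).

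Camk2b moved the other way. Its normalized count was 150, 267 and 130 in the WT_saline libraries, 199, 244 and 132 in WT_AAV, 235, 207 and 221 in TG_saline, and 798, 689 and 734 in TG_AAV. The lowest TG_AAV library was far above the highest control, WT_saline 2. The mean in TG_AAV, 740 ± 54.5 (SD, n = 3), stood at 3.73 times that of the controls, 198 ± 50.1 (SD, n = 9), a log2 change of 1.94 (SE 0.20, limma adjusted p = 3.03e-05).

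Camk2d was 2803, 2844 and 2517 normalized counts in TG_AAV and 2000 to 2807 in the controls, and did not pass (log2 0.17, limma adjusted p = 0.266). Camk2g was 1080, 1125 and 1073 in TG_AAV, above all controls at 751 to 1049 (log2 0.30, SE 0.09, limma adjusted p = 0.0267). The Camk2g call was lost without any single TG_AAV library and without the 3 Myl7-rich libraries (adjusted p 0.0789 to 0.130). Over the 4 genes together the mean was 4931 normalized counts in TG_AAV and 4198 in the controls. Camk2b took 13.7% to 15.7% of the family's reads in TG_AAV and 3.18% to 6.01% in the controls, and Camk2a took 7.54% to 7.72% against 13.4% to 20.7%. In every TG_AAV library Camk2b was above Camk2a in reads, and in every control it was below. Camk2d remained the most abundant, at 53.8% to 56.3% against 54.1% to 61.5%. Per kilobase of merged exons, mean levels in WT_saline were 293 for Camk2d, 231 for Camk2g, 124 for Camk2a and 41.1 for Camk2b. In TG_AAV they were 319, 286, 66.7 and 167.

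**Figure D4:**
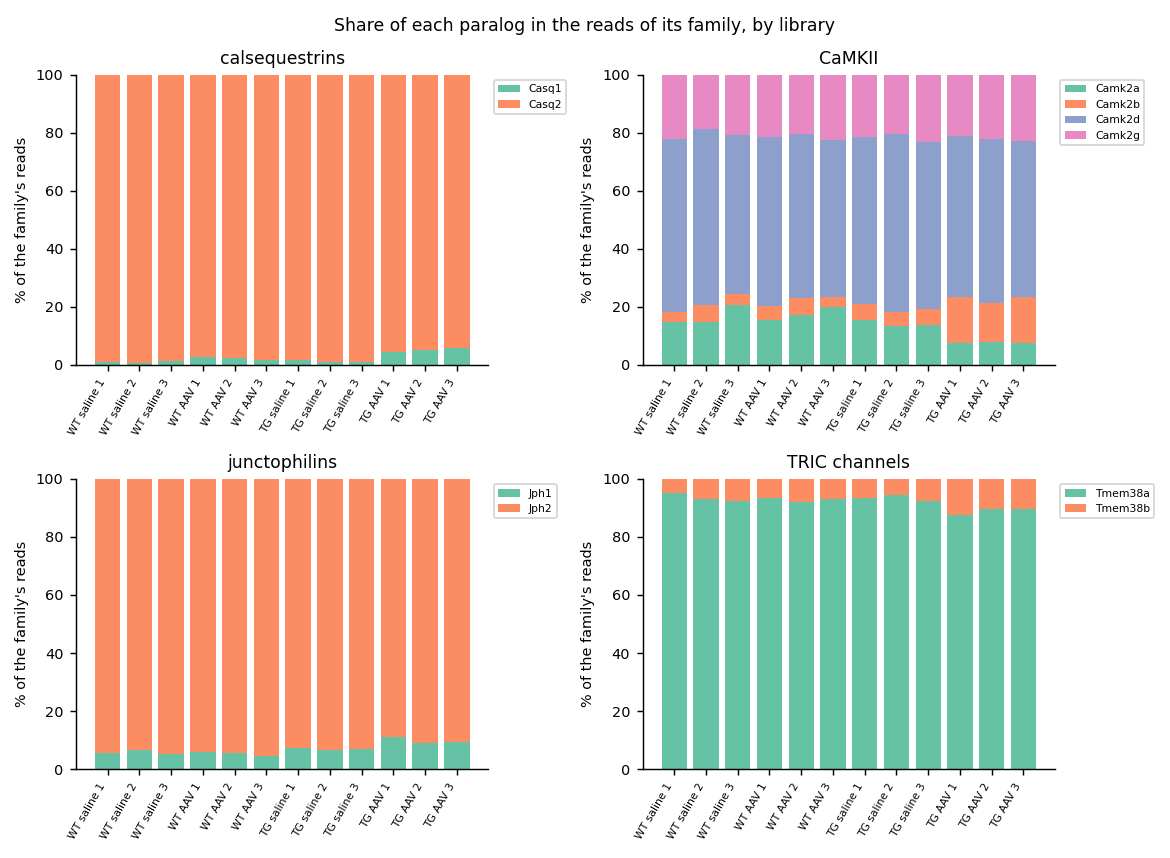
The plotted values are the percent of the family's reads that belong to a paralog, by library and group. The shares of Casq1, Camk2b, Jph1 and Tmem38b are higher in all 3 TG_AAV libraries than in any control, and the share of Camk2a is lower.

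Calm2 and Calm3 encode the same calmodulin protein. Calm3 was 1541, 1677 and 1397 normalized counts in the WT_saline libraries, 1701, 1598 and 1376 in WT_AAV, 1897, 2298 and 1966 in TG_saline, and 2393, 2608 and 2564 in TG_AAV. The TG_AAV values were all above the controls, with TG_saline next (log2 0.57, SE 0.08, limma adjusted p = 0.00041). Calm2 was 295 to 333 in TG_AAV and 255 to 437 in the controls, which enclosed it (log2 -0.09, limma adjusted p = 0.681). Calm2 shares 9.72% and Calm3 2.52% of their 50-base words with pseudogenes, so that their counts are uncertain.

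Of the 5 genes of exchange at the surface membrane, 1 fell, 0 rose and 4 did not pass. Slc8a1 encodes the sodium-calcium exchanger NCX1, which removes calcium from heart muscle cells. Its normalized count was 14186, 13098 and 12023 in the WT_saline libraries, 12728, 12149 and 12447 in WT_AAV, 12921, 13341 and 11651 in TG_saline, and 8696, 9617 and 9130 in TG_AAV. The control groups overlapped one another and none reached the TG_AAV range. Slc8a1 fell by 0.48 in log2 (SE 0.07, limma adjusted p = 0.000574).

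Atp2b1 and Atp2b4 encode calcium pumps of the plasma membrane. Atp2b1 was 1730, 1604 and 1676 normalized counts in TG_AAV and 1454 to 1576 in the controls, apart by a small margin (log2 0.15, limma adjusted p = 0.0697). DESeq2 called Atp2b1 (adjusted p = 0.0354). Atp2b4 was 624 to 792 against 557 to 881 (log2 -0.05, 95% interval -0.29 to 0.19). Stim1 and Orai1 encode the SR sensor and the channel pore of store-operated entry. Stim1 was 268 to 314 against 218 to 334 (log2 0.07, limma adjusted p = 0.628), and Orai1 was 203 to 255 against 160 to 269 (log2 0.20, limma adjusted p = 0.169). The groups overlapped for Atp2b4, Stim1 and Orai1.

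Mcu encodes the pore of the mitochondrial calcium uniporter. It was 298, 267 and 247 normalized counts in the WT_saline libraries, 297, 275 and 267 in WT_AAV, 399, 405 and 451 in TG_saline, and 484, 499 and 464 in TG_AAV. Both transgenic groups were above both wild-type groups. The log2 change in TG_AAV against the controls was 0.61 (SE 0.08, limma adjusted p = 0.000132). Letm1, which encodes an inner membrane protein of ion exchange, was 1017 to 1179 in TG_AAV and 1115 to 1507 in the controls (log2 -0.13, limma adjusted p = 0.302).

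**Figure D5:**
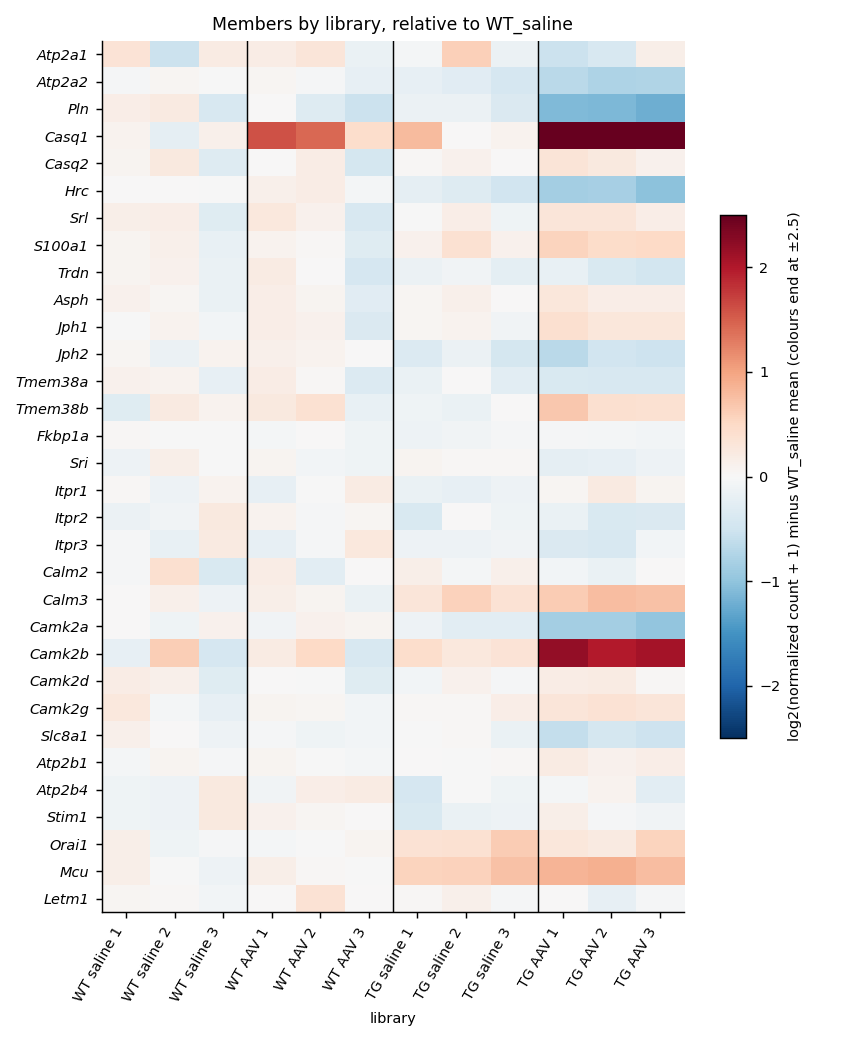
Rows are tested genes by role, columns are the 12 libraries, and colour is the log2 difference of normalized counts from the WT_saline mean, limited to ±2.5. Sln is left out, Casq1 and Camk2b are the strongest positive rows in TG_AAV, and Pln, Camk2a and Hrc the strongest negative ones.

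The control groups enter several comparisons, so the comparisons of TG_AAV with each of them share the TG_AAV libraries and are given side by side. Against TG_saline, which differs by the vector, 6 genes were called. Casq1 (log2 2.39, limma adjusted p = 0.00018) and Camk2b (1.74, 0.00115) rose. Pln (-0.93, 0.00736), Camk2a (-0.67, 0.000705), Hrc (-0.56, 0.00387) and Slc8a1 (-0.46, 0.00769) fell. Atp2a2, Mcu, Calm3, S100a1, Jph1, Jph2, Tmem38a, Tmem38b and Camk2g, called against the average of the controls, did not pass here (limma adjusted p 0.05 to 0.284). Over all genes 3.69% rose and 2.40% fell. Without WT_saline 3, WT_AAV 2 and WT_AAV 3 the count was 13, while 1746 of all genes were called, and in a fit of only these groups it was 12, with 1708 of all genes. Without the 3 Myl7-rich libraries, a fit that leaves 1 WT_AAV library, Slc8a1 was not called. The median log2 change of the 33 was then 0.02, with 0.001 over all genes. By edgeR and by DESeq2 the count was 8, with Atp2a2 and Tmem38b added, while 871 and 1185 of all genes were called.

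Against WT_AAV, which differs by the transgene, 5 genes rose and 6 fell, beside 10.6% and 8.17% of all genes. Casq1 (log2 1.53, limma adjusted p = 0.00174), Camk2b (1.99), Mcu (0.79), Calm3 (0.70) and S100a1 (0.57) rose. Hrc (-0.98, limma adjusted p = 3.4e-05), Camk2a (-0.92), Pln (-0.88), Atp2a2 (-0.67), Jph2 (-0.63) and Slc8a1 (-0.45) fell. Omitting the 3 Myl7-rich libraries leaves WT_AAV with 1 library assumed to vary like the other groups. That fit put the median log2 change of the 33 at -0.012, with 0 over all genes. Atp2a2, Pln, S100a1, Jph2 and Slc8a1 were not called in it. With the replicate number as a block 14 genes were called, with Jph1, Tmem38a and Orai1 added, beside 2798 of all genes. Against WT_saline, 7 rose and 7 fell, beside 10.3% and 8.38% of all genes. Those were the genes called against WT_AAV together with Tmem38b (0.48), Camk2g (0.33) and Tmem38a (-0.39), whose adjusted p of 0.0475 to 0.0494 lay just under the threshold. These calls were lost under 15, 16 and 12 of 26 alternatives for Tmem38b, Camk2g and Tmem38a, among them the omission of any single TG_saline or TG_AAV library.

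The vector without the transgene, WT_AAV against WT_saline, gave 0 calls by limma and by edgeR and 1 by DESeq2, and 1 gene had an unadjusted limma p under 0.05. Over all genes limma called 0% higher and 0% lower, and DESeq2 called 11. The gene that DESeq2 called was Casq1, the only one of the 33 whose WT_AAV values all lay above those of WT_saline, with a limma log2 value of 1.16 (adjusted p = 0.862). Limma called Casq1 without WT_AAV 3 and without WT_saline 3, WT_AAV 2 and WT_AAV 3.

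The transgene without the vector, TG_saline against WT_saline, gave 1 call, beside 0.0844% of all genes higher and 0.0153% lower. Mcu rose from 271 ± 25.3 to 419 ± 28.3 normalized counts (SD, n = 3 each; log2 0.63, limma adjusted p = 0.0346). The call was lost in a fit of only these groups, without the 3 Myl7-rich libraries, with a term for libraries with Myh2 above 100 normalized counts, and without WT_saline 3, WT_AAV 2, TG_saline 2, TG_saline 3 or any single TG_AAV library, with a log2 value of 0.57 to 0.70 and adjusted p as high as 0.189. DESeq2 called 4 genes, with Atp2a2, Hrc and Calm3 added, and 214 over all genes. The TG_saline values lay above those of WT_saline in 3 genes (Mcu, Calm3 and Orai1) and below in 7 (Atp2a2, Hrc, Jph2, Camk2a, Itpr1, Fkbp1a and Stim1), beside 8.71% and 7.84% of all genes. The limma log2 values were 0.42 for Calm3, 0.46 for Orai1, -0.34 for Hrc, -0.31 for Jph2, -0.30 for Atp2a2 and -0.22 for Camk2a, none of which passed (adjusted p 0.114 to 0.476).

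The interaction, the vector's change with the transgene less its change without it, was called for 3 genes, beside 0.614% of all genes higher and 0.238% lower. Camk2a had -0.70 in log2 (SE 0.12, limma adjusted p = 0.0199), Hrc -0.64 (SE 0.13, adjusted p = 0.0436) and Camk2b 1.64 (SE 0.34, adjusted p = 0.0436). For Casq1 the interaction was not called. Without the 3 Myl7-rich libraries none of these 3 calls held, in a fit that leaves WT_AAV with 1 library. The values were then -0.81 for Camk2a (adjusted p = 0.0957), -0.78 for Hrc (adjusted p = 0.130) and 1.20 for Camk2b (adjusted p = 0.341), and each call was also lost without several single libraries.

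Other genes of the same pathways were counted from 4 lists, in TG_AAV against the controls, where 12.0% of all genes rose and 9.69% fell. Sypl2, in the first and the last of these lists, had a control mean under the filter and was tested because of its level in TG_AAV, so it is left out of the counts and medians. Of the 11 other tested relatives of the 34 genes, 2 rose and 0 fell, with a median log2 of 0.13. Sypl2, which encodes mitsugumin 29 of the skeletal muscle triad, went from 9.08 ± 4.82 (SD, n = 9) to 121 ± 19.0 normalized counts (SD, n = 3). Orai3 (0.54) and Calu (0.36), a calcium-binding protein of the secretory pathway, were those that rose. Of 6 tested genes of other calmodulin kinases and calmodulin-binding inhibitors, 3 rose and 0 fell, with a median of 0.37. Camk1 went from 619 to 1113 (log2 0.85, limma adjusted p = 4.19e-05), and its upstream kinase Camkk1 (1.15) and the CaMKII inhibitor Camk2n1 (0.48, adjusted p = 0.0480) rose.

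Of 22 genes that set the phosphorylation of SR proteins, 0 rose and 3 fell, beside 12.0% and 9.69% of all genes, with a median of 0.01. These were the phosphodiesterases Pde3a (-0.55, limma adjusted p = 0.00107) and Pde4d (-0.29) and Hspb6 (-0.35), a small heat shock protein. Of the 10 other genes of triad structure, Bin1 (0.50), which shapes T-tubules, rose and the kinase Speg (-0.38) fell, and the median was -0.03. In TG_saline against WT_saline 0 genes of these 4 lists were called.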

How the data were processed

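The deposited table gives the authors' normalized counts by gene symbol, a signal unit: read counts scaled by one size factor for each library. Bowtie2 2.0, DESeq2 and build mm9 are named per the submitters' processing notes; the sources used here do not give counter, annotation, strand or filters. Positive values were whole multiples of a step per library, which gave whole reads (within 0.01 read). A size factor hides a change shared by most genes.

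Tests used limma 3.58.1 (R 4.3.3; trend, 4 group means, 12 libraries) on log2 of the normalized count plus 1; this log2 scale understates changes of low genes. Genes with a mean under 10 were left out, and 13030 were tested. Paralog shares and ratios were described, not tested. Same-number libraries of TG_AAV and WT_AAV deviated together (r 0.268, 0.206 and 0.332), a pairing taken from the data, so the blocked count is given there. Alternatives included edgeR 4.0.16 and DESeq2 1.42.0 on recovered reads. Tests were checked on simulated data. All 34 genes are described, with up to 4 called genes of smallest p from each other list. A further list, of mitochondrial calcium handling, and part of the neuronal marker list are not reported here. The genes and lists were chosen with earlier results of these data known. Promoters (RefSeq, GRCm38.p6), exon lengths and overlaps (GENCODE M21) come from another build than the authors' mm9. Exons of 10 of the 34 genes overlap antisense transcripts. The 5 genes Calm2, Atp2a2, Calm3, Tmem38b and Atp2b1 share over 1% of their 50-base words with other genes. The counts of all these genes are less certain.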

Additional observations from a re-analysis of the deposited data

Results flagged for a closer look

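In 3 genes the vector effect differed between transgenic and wild-type hearts, by the interaction in limma over all genes. For Camk2a the vector effect was -0.67 in transgenic and 0.03 in wild-type hearts, a difference of -0.70 on the log2 scale (SE 0.12, adjusted p = 0.0199). For Hrc it was -0.56 and 0.09, a difference of -0.64 (SE 0.13, adjusted p = 0.0436). For Camk2b it was 1.74 and 0.10, a difference of 1.64 (SE 0.34, adjusted p = 0.0436). Without the 3 libraries with Myl7 above 1000 normalized counts, a fit with 1 WT_AAV library, none of the 3 was called: the difference was -0.81 for Camk2a (adjusted p = 0.0957), -0.78 for Hrc (adjusted p = 0.130) and 1.20 for Camk2b (adjusted p = 0.341). Single libraries also decided these calls. Camk2a was not called without WT_saline 1, WT_saline 2, WT_AAV 2, TG_saline 1, TG_AAV 2 or TG_AAV 3 (adjusted p up to 0.0655). Hrc was not called without WT_saline 1, WT_saline 2, WT_AAV 1, WT_AAV 2, TG_saline 1, TG_saline 2 or any TG_AAV library (up to 0.124). Camk2b was not called without WT_saline 1, WT_saline 2, WT_AAV 1, WT_AAV 3, or any TG_saline or TG_AAV library (up to 0.109). With no library left out, Hrc and Camk2b were also not called with no filter on low genes or with the Myh2 term. Camk2b was not called with limma's robust moderation either. The part of the Myl7-rich libraries in these differences was not tested.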

How the results depend on the processing

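Over up to 25 alternatives, 10 of the 15 genes called in TG_AAV against the controls kept their call, and 8 of the 18 others passed in at least 1. Leaving out single libraries gave 11 to 17 calls against the controls, 6 to 8 against TG_saline, 11 to 14 against WT_AAV, 11 to 16 against WT_saline, 0 to 1 for the transgene alone, 0 to 1 for the vector alone and 0 to 3 for the interaction. Over all genes those fits called 1618 to 3161 against the controls and 400 to 1054 against TG_saline. They called 1450 to 2967 against WT_AAV and 1497 to 2812 against WT_saline. For the transgene alone, the vector alone and the interaction the calls were 0 to 40, 0 to 2 and 39 to 192. Omitting WT_saline 3, WT_AAV 2 and WT_AAV 3 gave 13 calls against TG_saline and 1 for the vector alone, beside 1746 and 45 of all genes. A fit of only the groups compared gave 12 against TG_saline and 0 for the transgene alone, beside 1708 and 3 of all genes. Omitting the 3 Myl7-rich libraries left 1 WT_AAV library. The median log2 change of the 33 genes was then -0.012 against WT_AAV, with 0 over all genes. It was 0.007 for the transgene alone and -0.059 for the interaction, with -0.006 and 0.002 over all genes. A term for libraries with Myh2 above 100 normalized counts was chosen after seeing the data. That term gave 0 calls for the transgene alone and 1 for the interaction, beside 2 and 65 of all genes. DESeq2 gave 4 for the transgene and 1 for the vector alone, beside 214 and 11 of all genes. With no filter 1 was called for the interaction, beside 90 of all genes. With a replicate block 16 genes were called against the controls, beside 3096 of all genes. Of 18 same-number pairs 8 correlated above 0.1 (-0.158 to 0.332), and only for TG_AAV and WT_AAV did all 3. In all pairs of groups, TG_AAV and WT_AAV included, the labels of the samples share only a number. Quantile normalization turned Atp2a2 to 0.052 against the controls, 0.0 against WT_AAV and 0.156 against WT_saline. Sln was 1.65 by edgeR and 1.64 by DESeq2, and -2.64 to 1.02 without single libraries. Fkbp1a ran from -0.015 to 0.003 and Atp2b4 from -0.13 to 0.042 without single libraries, and Atp2b4 was 0.05 without WT_saline 3, WT_AAV 2 and WT_AAV 3. The causes were not tested. Depth limits Fkbp1b and Atp2a1, which had few reads.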
